A study of Mus musculus with 8 samples.

Results

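The 10 genes described here encode nuclear factors that direct developing T cells toward the CD4 or the CD8 lineage. They were taken by symbol from the expression tables and are Zbtb7b, Runx3, Runx1, Cbfb, Patz1, Gata3, Myb, Tox, Satb1 and Bcl11b. All 10 had a row for each of the 8 libraries, among 12665 genes listed in vivo and 12133 listed in vitro, of which 11725 were listed in both. The libraries are bulk RNA sequencing of sorted mouse thymocytes, 2 in each of 4 groups. All mice carried Bcl6 fl/fl, loxP-flanked alleles of the transcriptional repressor gene Bcl6. The libraries labelled KO also carried Cd4cre, in which Cd4 regulatory sequences drive Cre from the double-positive stage on, and those labelled WT did not. In the in vivo system, thymocytes without CD4 and CD8 and positive for CD5 and TCRb (called agonist-p in the labels) were sorted directly. In the in vitro system, sorted CD4 and CD8 double-positive thymocytes were cultured for 24 h on plates coated with antibodies to CD3 and CD28 (8 µg/ml of each), and cells that had become CD4 and CD8 negative were then sorted. The sources used here give no age, sex or strain. They also do not tell whether replicates are separate animals or separate cultures, and the p-values therefore reflect the spread of these libraries alone, part or all of which may be technical.

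A thymocyte that has passed selection keeps either CD4 or CD8, and the choice is carried by a pair of opposed factors. Zbtb7b, which encodes ThPOK, holds cells in the CD4 helper lineage, and Runx3, paired with the subunit encoded by Cbfb, silences Cd4 and Zbtb7b in the CD8 lineage. Gata3, Tox, Myb, Satb1 and Bcl11b act before or beside that pair in thymocytes, and Patz1 (MAZR) binds silencer and enhancer sequences of Zbtb7b and the Cd8 genes.

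Total counts ranged from 14754440 to 23975636 per library. Bcl6, the targeted gene (mm10 chromosome 16, 23965052 to 23988852), had 64.6 and 61.0 FPKM in the in vitro KO libraries and 24.9 and 21.9 in the in vitro WT libraries, which goes against the label (log2 fold change 1.45, SE 0.09; edgeR quasi-likelihood test with Benjamini-Hochberg adjusted p = 1.53e-06). In vivo it had 8.81 and 14.4 FPKM in KO libraries and 11.5 and 13.9 in WT libraries, and the groups overlapped. Counts over the whole gene cannot separate the deleted exons, so Bcl6 checks the label in neither system, and KO and WT below mean the libraries labelled so. FPKM is the authors' read count scaled by gene length and library depth. Of 9 T lineage markers, 6 were listed, and all 6 were above 1 FPKM in all 8 libraries, with summed FPKM from 824 to 1104. The T cell receptor constant genes Trac, Trbc1 and Trbc2, also on that list, had no row under those symbols in any library. In bulk samples, fewer cells with a transcript and less transcript per cell cannot be told apart.

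The in vitro comparison asks which lineage factors differ in stimulated cells that lost both coreceptors when Cd4cre is added to Bcl6 fl/fl. In the KO libraries 8 of the 10 factors were higher, 1 (Myb) was lower and 1 (Cbfb) did not pass. The test was edgeR's quasi-likelihood test on the deposited counts with Benjamini-Hochberg adjustment over all 9658 genes tested, its result called the edgeR adjusted p from here on, with a threshold of 0.05. The rate over all genes tested was 37.8%, with 20.1% higher and 17.7% lower. The median log2 fold change was 0.69 over the 10 factors and -0.0028 over all genes tested. Zbtb7b and Runx3 reached the expression filter, an FPKM of 1 in at least 2 libraries, only in the KO libraries. They therefore had to differ, and their place in these counts and in the median of the 10 factors supports nothing. The other 8 passed it in each group, and of these 6 were higher, 1 was lower and 1 did not pass. Annotated genes on the opposite strand overlap 8 of the 10 factors, all but Cbfb and Bcl11b, and the strand setting of the counting is not stated, so reads of such pairs cannot be told apart. Log2 fold changes are KO over WT, with the standard error (SE) from 2 libraries per group.

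**Figure D1:**
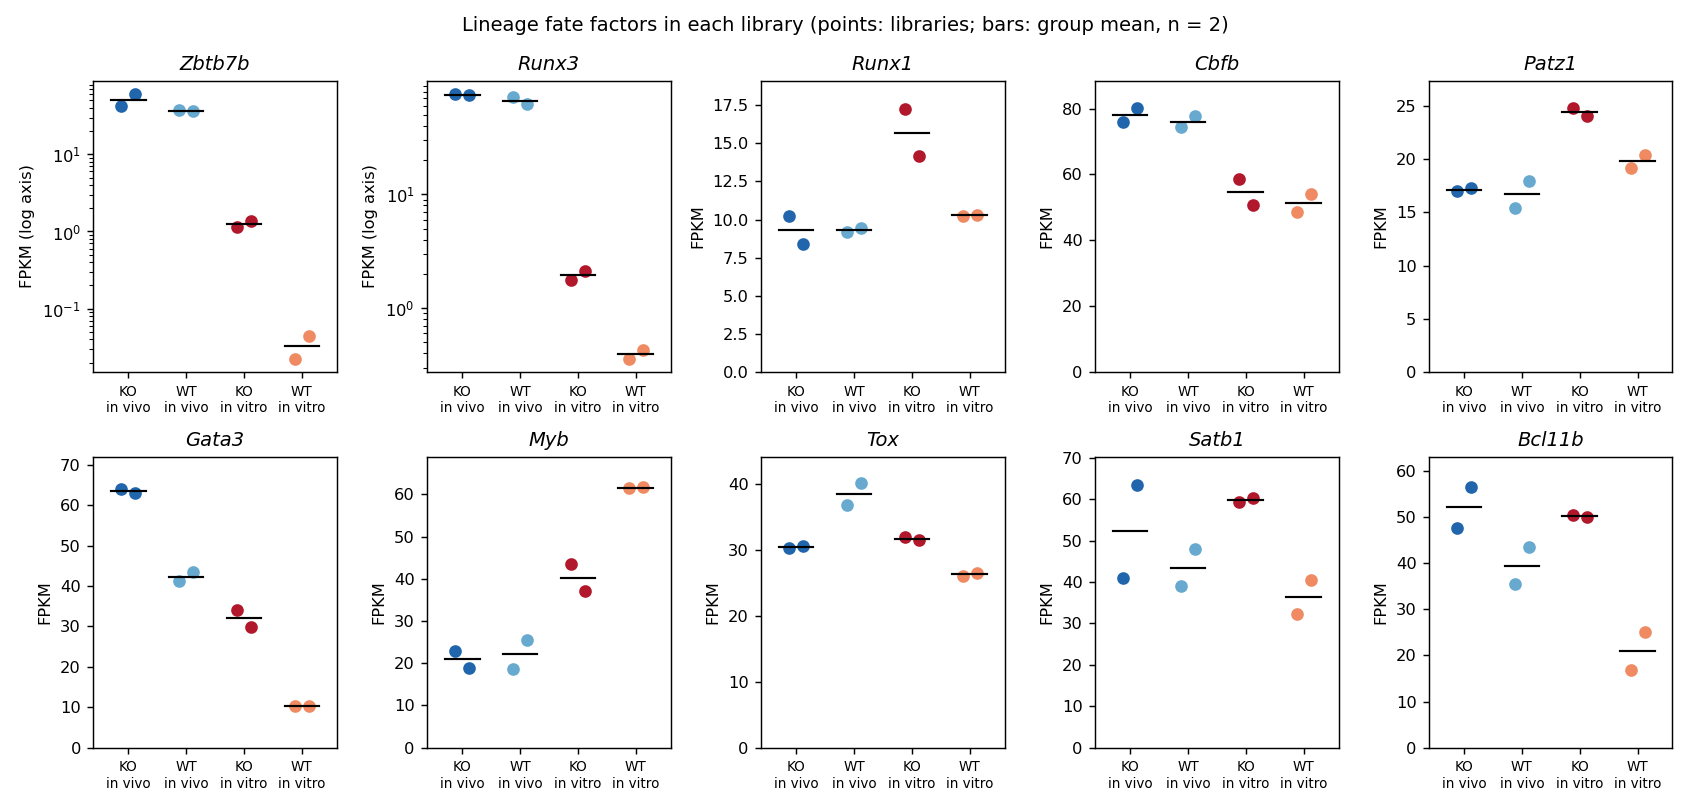
FPKM of each factor (vertical axis, logarithmic for Zbtb7b and Runx3, from 0 for the others) in each library, grouped on the horizontal axis as KO and WT in vivo and KO and WT in vitro. Points are libraries and bars are means of 2. Zbtb7b and Runx3 lie far apart between systems (Zbtb7b at 36.5 to 60.1 FPKM in vivo and 0.0223 to 1.35 in vitro), while Runx1, Tox and Satb1 stay within a few-fold in all 4 groups.

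Zbtb7b (chromosome 3, 89377644 to 89394776, minus strand of mm10) had 1.16 and 1.35 FPKM in the in vitro KO libraries and 0.0223 and 0.0438 in the WT libraries. These rest on 115 and 164 counts in KO libraries and 3 and 4 in WT libraries. Both KO libraries were above both WT libraries, but all 4 values were low. The summed counts of 279 and 7 gave a KO-to-WT ratio of 41.5, with an exact 95% binomial interval of 19.9 to 104 that covers counting error only. The fitted log2 fold change was 5.31 (SE 0.35; edgeR adjusted p = 1.78e-06), and its size depends on the few WT counts.

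Runx3 (chromosome 4, 135120652 to 135177990, plus strand) had 1.78 and 2.10 FPKM in KO libraries and 0.358 and 0.428 in WT libraries in vitro. The groups did not overlap, with both KO libraries high, and the level again was low in all 4. Its 386 counts in KO libraries and 78 in WT libraries gave a ratio of 5.16 (exact 95% interval 4.04 to 6.67, counting error only). The log2 fold change was 2.35 (SE 0.21; edgeR adjusted p = 1.54e-05).

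Runx1, the paralog that is active in double-negative and double-positive thymocytes (chromosome 16, 92601466 to 92826149, minus strand), had 17.2 and 14.2 FPKM in KO libraries and 10.3 and 10.3 in WT libraries. Both KO libraries were higher, by a log2 fold change of 0.64 (standard error 0.10; edgeR adjusted p = 0.000533). Cbfb, which encodes the subunit that binds no DNA itself and pairs with all RUNX proteins (chromosome 8, 105170674 to 105217989, plus strand), had 58.5 and 50.7 FPKM in KO libraries and 48.5 and 54.0 in WT libraries. These groups overlapped, and the log2 fold change of 0.12 (SE 0.10) did not pass (edgeR adjusted p = 0.359). Patz1, the zinc-finger factor (chromosome 11, 3288874 to 3309083, plus strand), had 24.9 and 24.1 FPKM in KO libraries and 19.2 and 20.4 in WT libraries. It rose by 0.33 (SE 0.08; edgeR adjusted p = 0.00759), a call that was lost without WT replicate 1 (edgeR adjusted p = 0.0760).

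Gata3, a zinc-finger factor needed for CD4 cells to form and for Zbtb7b expression (chromosome 2, 9857078 to 9890034, minus strand), had 34.2 and 29.9 FPKM in the in vitro KO libraries and 10.4 and 10.2 in the WT libraries. The groups were wide apart and replicates close together. The log2 fold change of 1.66 (SE 0.10) had the smallest edgeR adjusted p of the 10 factors, 1.17e-06. Myb, a factor that acts upstream of Gata3 in thymocytes (chromosome 10, 21124935 to 21160984, minus strand), had 43.4 and 37.0 FPKM in KO libraries and 61.5 and 61.6 in WT libraries. Both KO libraries were lower, and the log2 fold change was -0.59 (SE 0.10; edgeR adjusted p = 0.000954). Gata3 over Myb FPKM was 0.787 and 0.807 in KO libraries and 0.170 and 0.166 in WT libraries.

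Tox, an HMG-box factor needed for CD4 lineage thymocytes (chromosome 4, 6686353 to 6991557, minus strand), had 31.9 and 31.5 FPKM in KO libraries and 26.1 and 26.6 in WT libraries. Its log2 fold change of 0.30 (standard error 0.08; edgeR adjusted p = 0.0123) did not keep its call without WT replicate 1 (edgeR adjusted p = 0.0774) or with limma on log2(FPKM + 0.1) (limma adjusted p = 0.0540). Satb1, a chromatin organiser at lineage-specific enhancers (chromosome 17, 51736187 to 51833290, minus strand), had 59.2 and 60.2 FPKM in KO libraries and 32.3 and 40.4 in WT libraries. The log2 fold change was 0.74 (SE 0.12; edgeR adjusted p = 0.000781), and the KO libraries lay above both WT libraries. Bcl11b, a zinc-finger factor of T lineage commitment (chromosome 12, 107910403 to 108003602, minus strand), had 50.4 and 50.02 FPKM in KO libraries and 16.8 and 25.1 in WT libraries. It rose by 1.29 (SE 0.15; edgeR adjusted p = 8.40e-05), although the WT libraries were themselves well apart.

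Transcripts of mature thymocytes moved with the label in vitro. The summed FPKM of 6 markers of mature single-positive thymocytes, all 6 listed and none at 0, was 189 and 184 in KO libraries and 39.3 and 54.3 in WT libraries. Slfn1 was the lowest of them, at 0.726 and 1.26 FPKM in KO libraries and 0.223 and 0.0985 in WT libraries. The sum of 5 regulatory T cell markers was 92.7 and 93.3 in KO libraries and 145 and 150 in WT libraries. Most of that sum was Ikzf2, at 74.7 and 70.6 FPKM in KO libraries and 116 and 123 in WT libraries. Ctla4 went the other way, at 1.5 and 1.74 in KO libraries and 0.894 and 1.21 in WT libraries, and Foxp3 was at 0.296 to 0.468 FPKM over the 4 libraries. The sum over the 8 listed double-positive markers, of 9, was 38.3 and 35.0 in KO libraries and 30.2 and 35.5 in WT libraries, and overlapped. B cell markers (2 of 6 listed) summed to 5.06 and 5.76 in KO libraries and 2.95 and 2.85 in WT libraries, and stromal markers (2 of 6) to 8.51 and 7.02 in KO libraries and 4.76 and 4.55 in WT libraries. Nearly all of the stromal sum was Epcam, at 8.30 and 6.88 FPKM in KO libraries and 4.69 and 4.52 in WT libraries. Col1a1, the other stromal gene listed, was at 0.0373 to 0.215 FPKM. Erythroid markers (3 of 5) gave 3.69 and 13.5 in KO libraries and 1.96 and 13.03 in WT libraries. The listed innate-like (1 of 7), gamma delta (2 of 6) and myeloid (1 of 6) markers summed to at most 1.03 FPKM in any in vitro library. The part of these marker differences in the lineage factor results was not tested.

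Of the promoter windows of Runx3, Runx1 and Zbtb7b, only those that hold the letters known to be bound by RUNX proteins are shown. The Bcl11b window is shown for its TCF and LEF motif. Each runs 5′ to 3′ on the gene's strand from 250 bases before to 50 bases after an annotated start, from RefSeq on GRCm38.p6, and capitals mark motif letters. The windows are Runx3 at chr4:135120395-135120694 (plus strand), Runx1 at chr16:92826025-92826324 (minus strand), Zbtb7b at chr3:89387622-89387921 (minus strand) and Bcl11b at chr12:108003365-108003664 (minus strand).
Runx3: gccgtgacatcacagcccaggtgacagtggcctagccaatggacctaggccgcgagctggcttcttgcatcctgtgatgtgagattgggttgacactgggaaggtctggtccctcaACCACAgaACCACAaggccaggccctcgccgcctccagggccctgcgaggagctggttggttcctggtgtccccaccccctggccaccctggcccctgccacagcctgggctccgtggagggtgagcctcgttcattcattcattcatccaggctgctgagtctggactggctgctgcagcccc
Runx1: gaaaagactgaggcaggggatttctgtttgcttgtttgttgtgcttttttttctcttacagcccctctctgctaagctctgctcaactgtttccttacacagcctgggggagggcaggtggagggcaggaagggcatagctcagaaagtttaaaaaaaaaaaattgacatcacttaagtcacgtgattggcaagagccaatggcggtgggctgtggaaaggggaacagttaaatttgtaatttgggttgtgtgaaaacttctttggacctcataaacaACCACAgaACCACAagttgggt
Zbtb7b: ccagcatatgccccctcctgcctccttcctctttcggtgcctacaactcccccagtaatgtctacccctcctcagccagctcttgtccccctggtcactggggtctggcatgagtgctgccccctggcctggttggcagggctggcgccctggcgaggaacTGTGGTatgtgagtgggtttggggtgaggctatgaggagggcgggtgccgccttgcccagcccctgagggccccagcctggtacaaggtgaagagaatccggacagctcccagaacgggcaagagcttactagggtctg
Bcl11b: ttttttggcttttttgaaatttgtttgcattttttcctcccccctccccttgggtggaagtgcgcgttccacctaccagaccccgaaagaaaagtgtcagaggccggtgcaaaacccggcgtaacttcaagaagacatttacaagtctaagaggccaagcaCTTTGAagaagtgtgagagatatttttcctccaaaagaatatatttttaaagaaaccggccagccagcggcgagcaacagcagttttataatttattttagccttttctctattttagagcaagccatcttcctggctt

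Windows were found for 9 of the 10 factors, 17 in all. The RUNX motif ACCACA, searched on both strands, was in 16.8% of all 32851 windows of this length. Runx3 held it at -134 and -126 and Runx1 at 29 and 37, counted from 1 at the start with no position 0. In both genes the paired matches face the same way with 2 bases between them. That spacing was looked for after the matches were seen, and it was in 7 of all windows (0.0213%), among them those of Runx1, Runx2 and Runx3. Zbtb7b held the RUNX motif at -89 on the opposite strand, in its downstream window. No other window of the factors held it, and the remaining windows of Runx1, Runx3 and Zbtb7b were without it. TCF and LEF letters (CTTTGA, in 16.0% of windows) stood at -89 in Bcl11b and, on the opposite strand, at -220 in Patz1, and in no other window. The RUNX letters and the TCF and LEF letters are each common over all windows, so a match does not set a factor apart. The letters searched for BCL6 (TTCCTNGAA), for STAT proteins (TTCNNNGAA) and for GATA factors, which were AGATAA, were in none of the 17 windows, against 1.59%, 8.30% and 11.2% of all windows in that order, and each BCL6 match is also a STAT match. These matches describe letters only.

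In the thymus itself the question is put to agonist-selected cells. None of the 10 factors passed the edgeR adjusted threshold, where 1.10% of the 10227 genes tested did (113 genes; 0.284% higher and 0.821% lower). At an unadjusted p under 0.05 there were 4 factors (Zbtb7b, Gata3, Tox and Bcl11b), against 14.1% of all genes. DESeq2 called 1 factor, Gata3, against 4.94% of all genes, and limma on log2(FPKM + 1) or log2(FPKM + 0.1) called none, against 0.997% and 0.802% in that order. The KO and WT libraries did not overlap for 5 of 10 factors, 4 of them higher in KO libraries, against 43.4% of all genes without overlap and 22.0% higher. The median log2 fold change was 0.097 over the factors and -0.0036 over all genes.

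**Figure D2:**
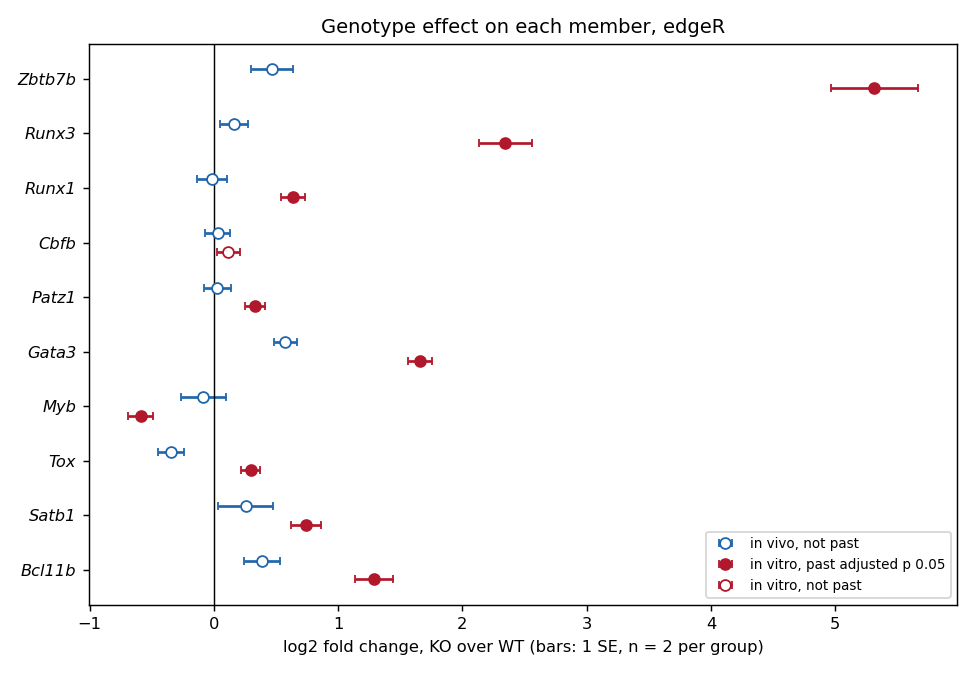
Log2 fold change, KO over WT (horizontal axis), of each factor in vivo (upper of each pair, blue) and in vitro (lower, red), with bars of 1 SE from 2 libraries per group. Filled points passed the edgeR adjusted threshold of 0.05. All 10 in vivo points are open, and the in vitro points run from -0.59 for Myb to 5.31 for Zbtb7b.

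Gata3 came closest in vivo, with 63.9 and 62.9 FPKM in KO libraries and 41.3 and 43.3 in WT libraries. The KO libraries were both higher and replicates were close, and the log2 fold change was 0.58 (SE 0.10; edgeR adjusted p = 0.0589). DESeq2 gave an adjusted p of 0.000161, a fit of all 8 libraries with edgeR gave 0.00442, and over all alternatives the adjusted p ran from 0.000161 to 0.301. Tox had 30.3 and 30.7 FPKM in KO libraries and 36.8 and 40.2 in WT libraries in vivo. Both KO libraries were lower, but the log2 fold change of -0.34 (SE 0.10) did not pass (edgeR adjusted p = 0.190).

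Zbtb7b was abundant in vivo, with 42.4 and 60.1 FPKM in KO libraries and 37.1 and 36.5 in WT libraries. The KO libraries were above the WT libraries and far from each other, and the log2 fold change of 0.47 (SE 0.17) did not pass (edgeR adjusted p = 0.277). It was 0.69 without KO replicate 1 and 0.21 without KO replicate 2. Runx3 had 75.9 and 74.0 FPKM in KO libraries and 71.4 and 61.7 in WT libraries, a log2 fold change of 0.16 (standard error 0.11; edgeR adjusted p = 0.633). Its groups did not overlap, by a narrow gap. Runx1 had 10.2 and 8.37 FPKM in KO libraries and 9.22 and 9.47 in WT libraries, with a log2 fold change of -0.013 (standard error 0.12; edgeR adjusted p = 0.986). Cbfb had 75.9 and 80.2 FPKM in KO libraries and 74.4 and 77.6 in WT libraries (0.030, SE 0.10; edgeR adjusted p = 0.955). For Runx1 and Cbfb the libraries of the 2 groups were interleaved.

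Bcl11b had 47.7 and 56.4 FPKM in the in vivo KO libraries and 35.4 and 43.5 in the WT libraries. The groups did not overlap, and the log2 fold change of 0.39 (SE 0.15) did not pass (edgeR adjusted p = 0.298). Satb1 had 40.9 and 63.5 FPKM in KO libraries and 39.0 and 47.9 in WT libraries, with a log2 fold change of 0.25 (standard error 0.22; edgeR adjusted p = 0.727). Its groups overlapped, and without KO replicate 2 the sign turned (-0.080). Myb had 23.0 and 18.9 FPKM in KO libraries and 18.7 and 25.5 in WT libraries (-0.084, SE 0.18; edgeR adjusted p = 0.918). Patz1 had 17.03 and 17.3 FPKM in KO libraries and 15.4 and 18.0 in WT libraries (0.028, SE 0.11; edgeR adjusted p = 0.962). Both overlapped, and their sign turned when single libraries were left out, Myb without WT replicate 2 (0.16) or KO replicate 2 (0.065) and Patz1 without WT replicate 1 (-0.077).

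Markers of other cells varied among the in vivo libraries. Of 6 myeloid markers, 5 were listed, and they summed to 121 and 17.6 FPKM in KO libraries and 28.9 and 11.9 in WT libraries, with Lyz2 at 109 in KO replicate 1. B cell markers (6 of 6) summed to 25.8 and 18.3 in KO libraries and 14.0 and 4.37 in WT libraries. Double-positive markers (9 of 9) summed to 131 and 146 in KO libraries and 80.5 and 94.0 in WT libraries, so that both KO libraries were higher. Within that list Dntt was at 62.1 and 29.4 FPKM in KO libraries and 14.3 and 8.76 in WT libraries. Cd4 was at 22.8 and 78.4 FPKM in KO libraries and 26.8 and 55.0 in WT libraries, and Foxp3 at 3.36 and 14.1 in KO libraries and 8.12 and 17.3 in WT libraries, so that replicate 2 was the higher in each group. Satb1 and Bcl11b were likewise higher in replicate 2 of each group. Mature single-positive markers (6 of 6) summed to 538 and 645 in KO libraries and 583 and 553 in WT libraries, regulatory T cell markers (5 of 5) to 76.5 and 110 in KO libraries and 108 and 156 in WT libraries, and both sums overlapped. Of the regulatory markers, Ikzf2 was at 28.0 and 32.7 FPKM in KO libraries and 48.9 and 82.5 in WT libraries, without overlap, and the others overlapped. Innate-like T and NK markers (7 of 7) gave 261 and 235 in KO libraries and 251 and 176 in WT libraries, with Ncr1 at 0 in WT replicate 2. Gamma delta markers (2 of 6) gave 82.5 and 47.2 in KO libraries and 86.5 and 55.2 in WT libraries. Of these, Sox13 was at 48.4 and 31.4 FPKM in KO libraries and 20.99 and 15.4 in WT libraries, without overlap. Blk went the other way, at 34.2 and 15.8 FPKM in KO libraries and 65.5 and 39.9 in WT libraries, again without overlap. Erythroid markers (3 of 5) stayed at 1.64 to 4.33 and stromal markers (3 of 6) at 3.37 to 5.95 in all 4 libraries. The part of these markers in the values of the lineage factors was not tested.

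The effect of the label differed between systems for 6 of the 10 factors, all 6 with a lower log2 fold change in vivo than in vitro, where 16.4% of 9364 genes tested in both differed and 9.81% were lower. Zbtb7b and Runx3 are 2 of those 6, and they entered this test only through their level in the in vitro KO libraries, so their place in the count supports nothing. Of the other 8 factors, which passed the filter in each group, 4 were lower in vivo and 4 did not pass. The difference was -4.82 for Zbtb7b (SE 0.44; edgeR adjusted p = 0.000274), from effects of 0.47 in vivo and 5.31 in vitro, and it rests on the 7 WT counts in vitro. For Runx3 it was -2.16 (SE 0.21; edgeR adjusted p = 0.000426), with effects of 0.16 in vivo and 2.35 in vitro. Both sizes depend on how low values are scaled: with limma on log2(FPKM + 1), which shrinks changes of low genes, the difference was -0.68 for Zbtb7b (limma adjusted p = 0.0473) and -0.90 for Runx3 (limma adjusted p = 0.00518). Both factors were not tested without either in vitro KO library, since they then failed the expression filter. For Gata3 the difference was -1.05 (SE 0.13; edgeR adjusted p = 0.000906), and both KO libraries were above both WT libraries in each system. For Tox it was -0.61 (SE 0.12; edgeR adjusted p = 0.00665), with an effect of -0.34 in vivo, which did not pass, and 0.30 in vitro. Among those 6, Tox alone had fitted effects of opposite sign together with KO and WT libraries that were apart in each system.

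For Bcl11b the difference between systems was -0.87 (SE 0.24; edgeR adjusted p = 0.0302), and for Runx1 it was -0.62 (SE 0.17; edgeR adjusted p = 0.0301). Both calls depended on single libraries and on the tool. That of Runx1 was lost with limma on log2(FPKM + 0.1) (limma adjusted p = 0.0570) and without in vitro WT replicate 1 (0.111), in vitro WT replicate 2 (0.0749), in vitro KO replicate 1 (0.111) and in vivo KO replicate 2 (0.0887), all edgeR adjusted p. That of Bcl11b was lost with the same limma setting (limma adjusted p = 0.0592) and without in vitro WT replicate 1 (0.105), in vitro KO replicate 1 (0.0884), in vitro KO replicate 2 (0.0839), in vivo WT replicate 2 (0.0628) and in vivo KO replicate 1 (0.101), again edgeR adjusted p. The differences of Satb1 (-0.46, SE 0.26; edgeR adjusted p = 0.263), Patz1 (-0.27, SE 0.13; edgeR adjusted p = 0.173), Cbfb (-0.060, SE 0.14; edgeR adjusted p = 0.805) and Myb (0.53, SE 0.21; edgeR adjusted p = 0.0987) did not pass. That of Satb1 passed without in vivo KO replicate 2 (-0.80; edgeR adjusted p = 0.0380) and that of Myb without in vivo WT replicate 2 (0.75; edgeR adjusted p = 0.0192) and, on all 8 libraries, with DESeq2 (0.55; DESeq2 adjusted p = 0.0419).

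Levels were then compared between systems within each label, in vivo over in vitro. The in vivo libraries were made by BGI Genomics and the in vitro ones by Novogene, per the labels, so system and library maker cannot be told apart. The FPKM tables may also have been scaled per system, and the test used the counts. Between KO libraries 4 factors were higher in vivo, 3 were lower and 3 did not pass, against 61.4% of all genes (30.4% higher, 31.1% lower). Between WT libraries 6 were higher in vivo, 2 were lower and 2 did not pass, against 67.7% of all genes (34.0% higher, 33.7% lower). Zbtb7b and Runx3 are among those higher under each label. They met the filter in vitro only through the KO libraries, so their place in these counts supports nothing. Of the other 8 factors, 2 were higher, 3 lower and 3 not past between KO libraries, and 4, 2 and 2 between WT libraries. Most genes differed between systems, so these counts are only a description beside those shares.

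**Figure D3:**
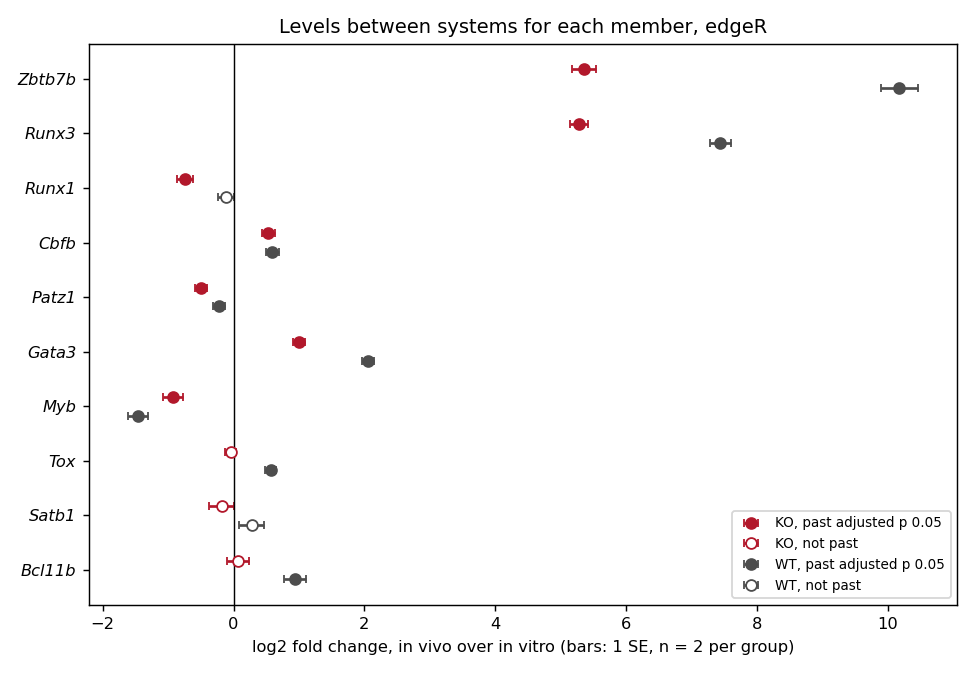
Log2 fold change, in vivo over in vitro (horizontal axis), of each factor between KO libraries (upper of each pair, red) and between WT libraries (lower, grey), with bars of 1 SE from 2 libraries per group. Filled points passed the edgeR adjusted threshold of 0.05. Zbtb7b and Runx3 stand to the right of all others, at 5.36 and 5.28 between KO libraries and at 10.17 and 7.44 between WT libraries.

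Both factors of the lineage pair were high in vivo and low in vitro. Zbtb7b had 42.4 and 60.1 FPKM in the in vivo KO libraries and 1.16 and 1.35 in the in vitro KO libraries. The count ratio scaled by library size was 41.0 between KO libraries (8995 and 279 counts; exact 95% interval 36.4 to 46.4). Between WT libraries it was 1204 (6759 and 7 counts; 584 to 2996), and the log2 fold change of 10.17 (standard error 0.29; edgeR adjusted p = 9.44e-10) had the largest size of all 9364 genes tested. Genes that did not meet the filter in both systems were not ranked, and Zbtb7b met it in vitro only through the KO libraries, so this rank supports nothing. Runx3 gave a ratio of 38.7 between KO libraries (11724 and 386 counts; 34.9 to 42.9) and of 175 between WT libraries (10951 and 78 counts; 140.2 to 222). Its log2 fold changes were 5.28 between KO libraries (SE 0.13; edgeR adjusted p = 1.23e-09) and 7.44 between WT libraries (SE 0.16; edgeR adjusted p = 4.66e-10). These intervals cover counting error only.

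Of the other factors, Gata3 was higher in vivo by 1.0 between KO libraries (SE 0.09; edgeR adjusted p = 3.90e-06) and by 2.05 between WT libraries (SE 0.10; edgeR adjusted p = 1.92e-08). Cbfb was higher in vivo by 0.53 between KO libraries (SE 0.10; edgeR adjusted p = 0.000812) and 0.59 between WT libraries (SE 0.10; edgeR adjusted p = 0.000303). Myb was lower in vivo, at -0.93 between KO libraries (SE 0.15; edgeR adjusted p = 0.000258) and -1.46 between WT libraries (SE 0.15; edgeR adjusted p = 6.28e-06). Those 3 factors thus went the same way under each label. Patz1 was lower in vivo, at -0.50 between KO libraries (SE 0.09; edgeR adjusted p = 0.000735) and -0.23 between WT libraries (SE 0.09; edgeR adjusted p = 0.0479), the second call being lost under 11 of 15 alternatives. Runx1 was lower in vivo between KO libraries (-0.74, SE 0.12; edgeR adjusted p = 0.000302) and did not pass between WT libraries (-0.12, SE 0.12; edgeR adjusted p = 0.398).

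Tox did not pass between KO libraries, at 30.3 and 30.7 FPKM in vivo and 31.9 and 31.5 in vitro (-0.046, SE 0.08; edgeR adjusted p = 0.651). Between WT libraries it was higher in vivo by 0.57 (SE 0.08; edgeR adjusted p = 0.000113). Bcl11b had the like pattern, with 0.065 between KO libraries (SE 0.17; edgeR adjusted p = 0.753) and 0.93 between WT libraries (SE 0.17; edgeR adjusted p = 0.000516). Satb1 passed in neither, with -0.18 between KO libraries (SE 0.19; edgeR adjusted p = 0.413) and 0.27 between WT libraries (SE 0.19; edgeR adjusted p = 0.211). Between KO libraries Satb1 passed without in vivo KO replicate 2 (-0.53; edgeR adjusted p = 0.0261). A p that misses the threshold does not show that levels were equal.

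Within each group the factors can be ordered by mean FPKM, which is scaled by gene length. In the in vivo KO libraries the order from high to low was Cbfb (78.1), Runx3 (75.0), Gata3 (63.4), Satb1 (52.2), Bcl11b (52.0), Zbtb7b (51.2), Tox (30.5), Myb (20.96), Patz1 (17.1) and Runx1 (9.31). In the in vivo WT libraries Cbfb (76.0) and Runx3 (66.6) again led and Runx1 (9.34) again came last. Neighbours from Gata3 to Zbtb7b in the KO order overlapped, as did those from Satb1 through Gata3, Bcl11b and Tox to Zbtb7b in the WT order. In the in vitro KO libraries Satb1 (59.7), Cbfb (54.6) and Bcl11b (50.2) led, and in the in vitro WT libraries Myb (61.6), Cbfb (51.3) and Satb1 (36.4) did. Runx3 and Zbtb7b were the lowest in both in vitro groups, at 1.94 and 1.26 in KO libraries and 0.393 and 0.0331 in WT libraries. In vitro the overlapping neighbours were Gata3 and Tox in KO libraries, and Bcl11b with Patz1 and Gata3 with Runx1 in WT libraries.

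Ratios within a library do not depend on its scaling. Runx3 made up 88.1% and 89.8% of the summed Runx1 and Runx3 FPKM in the in vivo KO libraries and 88.6% and 86.7% in the in vivo WT libraries. In vitro it made up 9.36% and 12.9% in KO libraries and 3.37% and 3.99% in WT libraries. The share was thus high in vivo, low in vitro, and without overlap between labels in vitro only. Zbtb7b over Runx3 FPKM was 0.559 and 0.811 in the in vivo KO libraries, 0.520 and 0.591 in the in vivo WT libraries, 0.651 and 0.644 in the in vitro KO libraries and 0.0624 and 0.102 in the in vitro WT libraries. The in vitro KO ratio lay inside the in vivo range, while both of its terms were far below their in vivo levels. Gata3 over Myb FPKM was 2.78 and 3.33 in the in vivo KO libraries and 2.21 and 1.70 in the in vivo WT libraries, both above the in vitro values given earlier. Cbfb over the Runx1 and Runx3 sum was 0.881 and 0.974 in the in vivo KO libraries, 0.922 and 1.09 in the in vivo WT libraries, 3.08 and 3.11 in the in vitro KO libraries and 4.56 and 5.03 in the in vitro WT libraries.

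**Figure D4:**
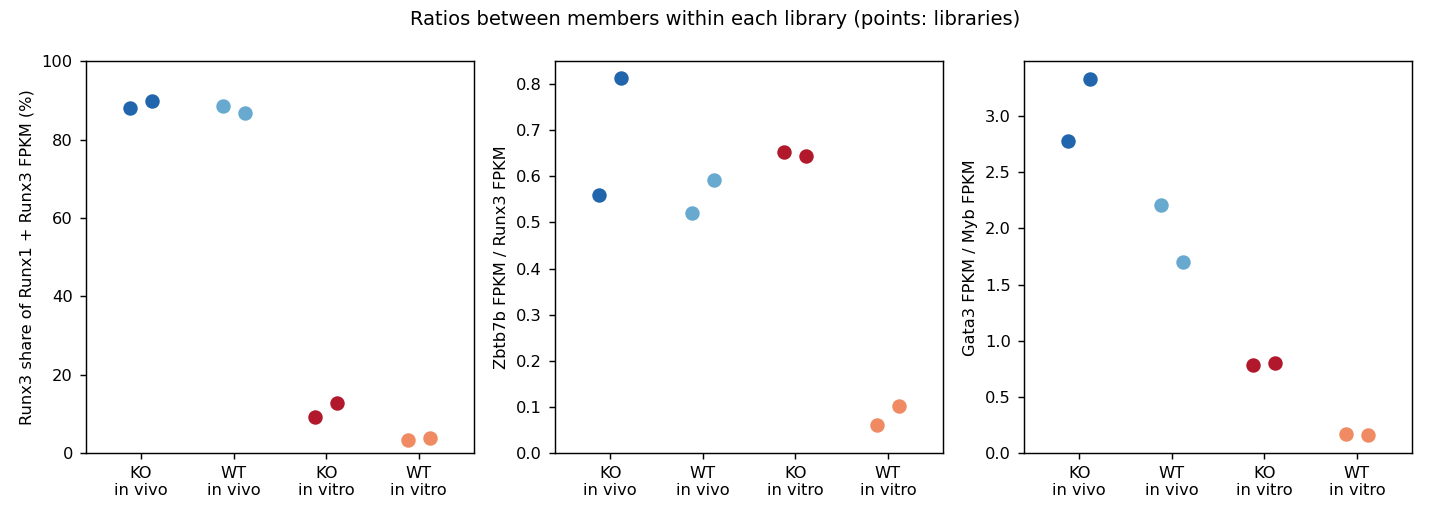
Ratios between factors within each library, by group on the horizontal axis (KO and WT in vivo, KO and WT in vitro), each point a library. The vertical axes are the Runx3 share of summed Runx1 and Runx3 FPKM in percent, Zbtb7b over Runx3 FPKM and Gata3 over Myb FPKM. The Runx3 share is 86.7% to 89.8% in vivo and 3.37% to 12.9% in vitro, and the in vitro WT libraries are lowest in all 3 panels.

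The profile of each lead factor over the 8 libraries was set against those of the 9110 genes compared, by the Euclidean distance of gene-centred log2 CPM. Nearest to Runx3 were Id2, an inhibitor of E proteins (distance 0.604), the GTPase gene Gimap4 (1.22), the myosin gene Myo1f (1.43), the surface glycoprotein gene Cd7 (1.64) and the interleukin-18 receptor chain Il18r1 (1.65), where the median distance was 9.23. Nearest to Zbtb7b were Igfbp4, an insulin-like growth factor binding protein (1.59), Cd7 (2.75), Runx3 itself (2.88), Il18r1 (3.02) and Id2 (3.28), with a median of 11.5. Cd7, Il18r1 and Id2 stood on the list of each. Nearest to Gata3 were Maml2, a Notch coactivator (0.255), Arid3b (0.393), Mbp (0.406), the cyclin gene Ccne1 (0.409) and Ulbp1 (0.473), with a median of 2.85. Maml2 had log2 fold changes of 0.53 in vivo and 1.63 in vitro, close to the 0.58 and 1.66 of Gata3. It was picked by nearness in these same libraries, so this likeness supports nothing. The 8 libraries fall into 4 groups, so these distances mostly reflect group means. Zbtb7b and Runx3 were compared only because their in vitro KO libraries met the filter, so the place of Runx3 near Zbtb7b supports nothing. The distances of Zbtb7b also depend on its 3 and 4 counts in the in vitro WT libraries.

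A list of 44 other genes of the lineage choice was set beside the 10 factors. In vitro 36 were tested, of which 13 were higher, 6 lower and 17 did not pass, against 20.1% higher and 17.7% lower over all genes tested. Their median log2 fold change was 0.032, against -0.0028 over all genes. The counts by role that follow cover few genes each and are a description beside those same shares. Among the coreceptors Cd4 rose by 0.72 (SE 0.09; edgeR adjusted p = 0.000170), Cd8b1 by 0.76 (SE 0.21; edgeR adjusted p = 0.0143) and Cd8a fell (-0.42, SE 0.10; edgeR adjusted p = 0.00810). In FPKM Cd4 was at 10.9 and 11.4 in KO libraries and 6.84 and 6.98 in WT libraries, in cells sorted as negative for the protein. Of 5 TCF, LEF, E protein and Ets factors, Ets1 (1.17, SE 0.13), Lef1 (0.83, SE 0.10) and Tcf7 (0.35, SE 0.11) rose and 2 did not pass. Of 8 tested zinc-finger and cofactor genes the Groucho corepressor Tle3 rose (0.56, SE 0.09), while its paralog Tle4 (-0.66, SE 0.08) and the histone deacetylases Hdac1 (-0.42, SE 0.09) and Hdac2 (-0.31, SE 0.08) fell. Of 8 tested genes of the cytokine signal that favours CD8 fate, 4 rose and 4 did not pass. The largest was Il7r, the interleukin-7 receptor (1.93, SE 0.18), at 27.9 and 24.6 FPKM in KO libraries and 5.33 and 8.83 in WT libraries. The kinase genes Jak3 (0.44, SE 0.10) and Jak1 (0.40, SE 0.10) and Stat5b (0.30, SE 0.09) rose less.

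Of 6 chromatin and Ikaros genes, the DNA methyltransferase gene Dnmt1 rose (0.64, SE 0.08), Ikzf3 fell (-0.38, SE 0.10) and 4 did not pass. Neither tested Tox paralog passed, with Tox2 at -0.12 (SE 0.12) and Tox4 at 0.021 (SE 0.08). Among lineage outputs the integrin chain Itgae, a RUNX3 target of CD8 cells, rose by 3.15 (SE 0.13; edgeR adjusted p = 3.47e-07). Nkg7, a cytotoxic granule gene, fell in the KO libraries (-1.50, SE 0.12; edgeR adjusted p = 5.81e-06), and the perforin gene Prf1 rose by 0.50 (SE 0.18; edgeR adjusted p = 0.0474). Cd40lg, a helper T cell gene, did not pass (-0.028, SE 0.10; edgeR adjusted p = 0.846). Outputs of the CD8 side thus went both ways. Il7r is also among the mature thymocyte markers given above, and the 3 coreceptors are among the double-positive markers.

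In vivo 41 of the 44 were tested and none passed edgeR's adjusted threshold, against 1.10% of all genes. At an unadjusted p under 0.05 there were 9 of the 41, against 14.1% of all genes. DESeq2 called 6 of them, against 4.94% of all genes, and limma on log2(FPKM + 1) called 0, against 0.997%. Their median was 0.079, against -0.0036 over all genes. Nearest to the threshold was Socs3, a feedback inhibitor of cytokine signals, with 10.2 and 10.2 FPKM in KO libraries and 23.9 and 17.3 in WT libraries (-1.02, SE 0.17; edgeR adjusted p = 0.0588). The granzyme gene Gzmb had 530 and 561 FPKM in KO libraries and 286 and 155 in WT libraries (1.30, SE 0.27; edgeR adjusted p = 0.103). Both had KO and WT libraries that did not overlap. Tox2 had 10.2 and 7.99 FPKM in KO libraries and 5.50 and 5.59 in WT libraries (0.71, SE 0.15; edgeR adjusted p = 0.109), opposite to Tox in vivo. Cd8b1 had 7.82 and 14.9 FPKM in KO libraries and 4.03 and 4.90 in WT libraries (1.34, SE 0.32; edgeR adjusted p = 0.131). Cd4 (0.30, SE 0.58) and Cd8a (0.18, SE 0.49) varied more within groups than between them. Between systems the label effect differed for 7 of 36 list genes, near the 16.4% of all genes that differed. It was lower in vivo for Itgae (-2.59), Il7r (-1.76), Ets1 (-1.15) and Tle3 (-0.52) and higher for Nkg7 (1.83), Tox2 (0.86) and Tle4 (0.75).

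**Figure D5:**
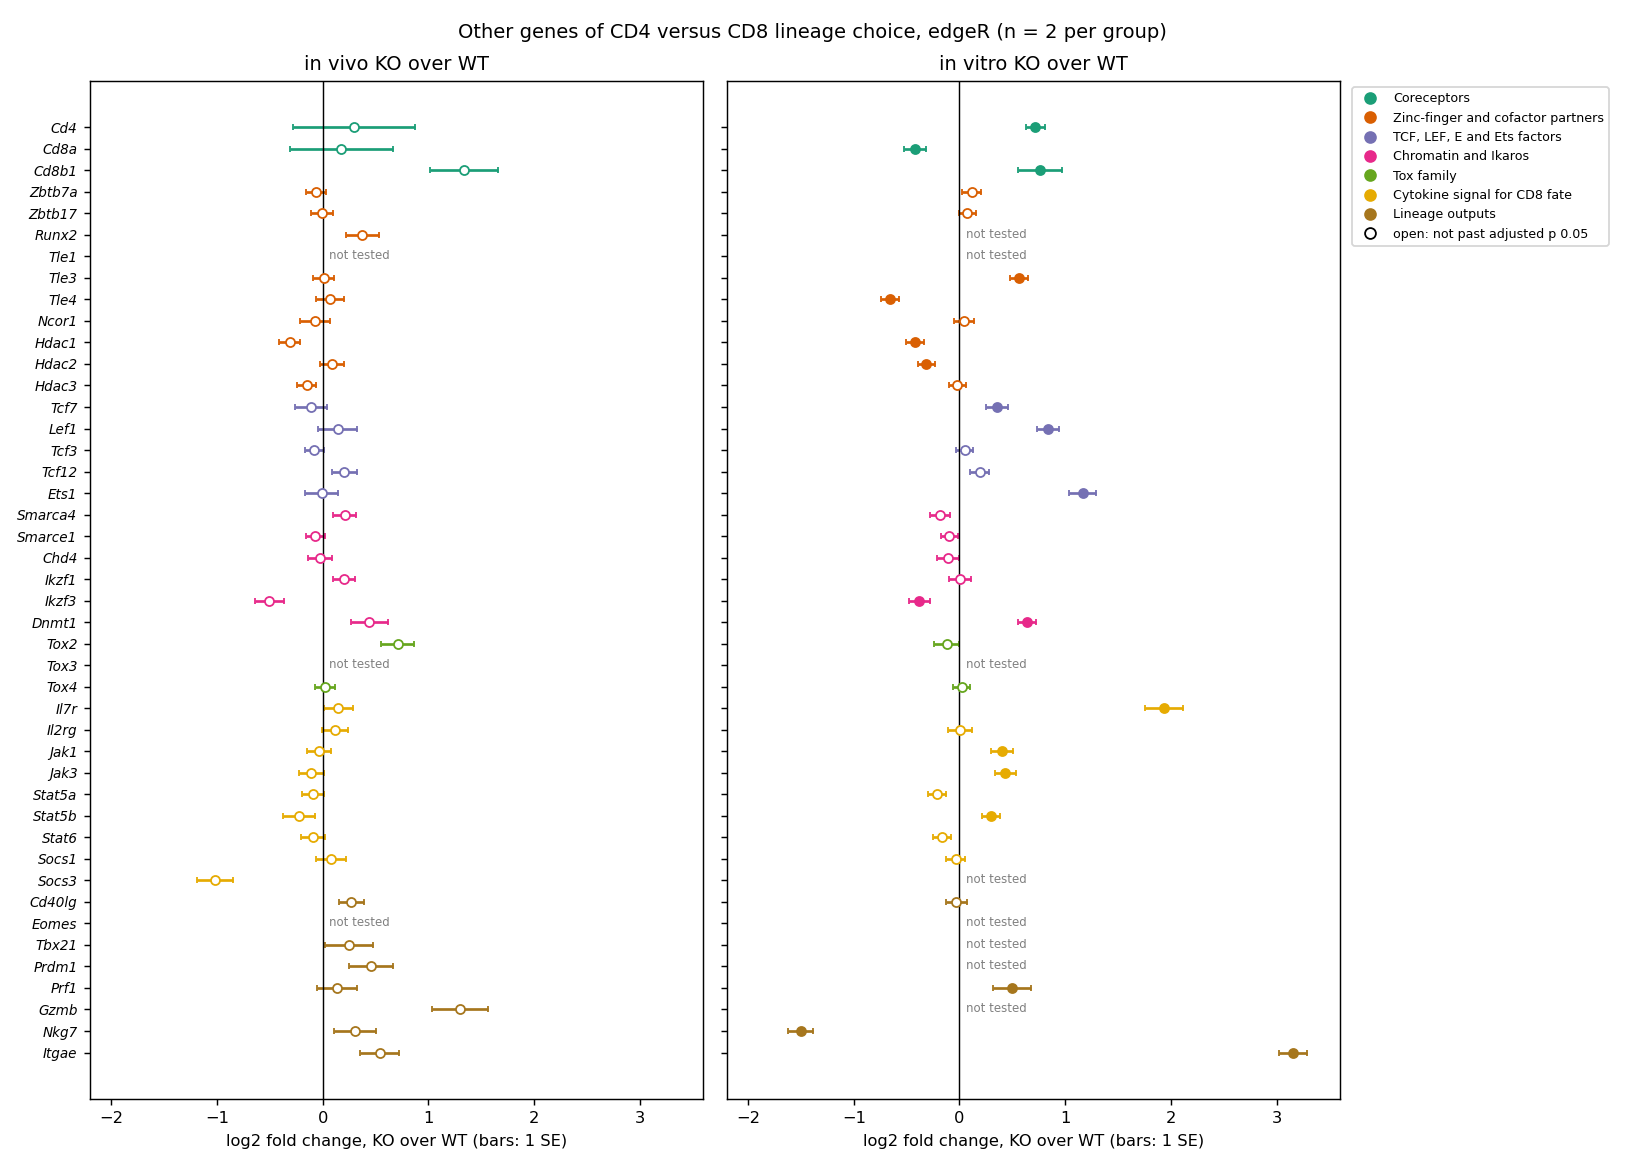
Log2 fold change, KO over WT (horizontal axes), of the 44 other genes of CD4 and CD8 lineage choice, in vivo (left) and in vitro (right), coloured by role, with bars of 1 SE from 2 libraries per group. Filled points passed the edgeR adjusted threshold of 0.05. In vivo no point is filled, and in vitro Itgae (3.15) and Il7r (1.93) lie farthest right and Nkg7 (-1.50) farthest left.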

How the data were processed

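The labels' protocols name TRIzol for the extraction of RNA. For each gene the authors deposited a whole-number count and an FPKM. Trim Galore 0.4.4, Bowtie2, RSEM, featureCounts, Subread and DESeq2 and the build mm10 are named in the submitters' processing notes, with no roles. No annotation is named in the sources used here, nor the tool behind each column. The gene lengths implied by the deposited counts and FPKM were the same in both systems within 1% for all 11715 genes compared.

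Counts were tested as deposited with edgeR 4.0.16 (quasi-likelihood, TMM, R 4.3.3), two-sided, adjusted by Benjamini-Hochberg over all genes that reached FPKM 1 in 2 or more libraries (in each system, for fits of all 8 libraries). The genotype was tested on each system's 4 libraries, without a replicate term, and system comparisons on group means of all 8. The SE of a log2 fold change is its size divided by the square root of F. The fits were tested on simulated data. Between replicates chi-square over degrees of freedom was 9.40 to 19.1, above sampling noise, and each was counted as its own sample. The alternatives were RLE and library-total scaling, no filter, limma 3.58.1, DESeq2 1.42.0, a replicate block, 1 fit of all 8 libraries and leaving out each library. Symbols were matched to GENCODE M21 for positions (12534 in vivo, 11994 in vitro).

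The factors and lists were chosen with earlier results of these data known. Of the 44 list genes, those named are up to 4 per role and genotype comparison with the smallest adjusted p, plus Cd4, Cd8a and Cd8b1, and for Runx3, Zbtb7b and Gata3 the 5 nearest profiles, passing over predicted genes, pseudogenes and receptor segments.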

Additional observations from a re-analysis of the deposited data

Results flagged for a closer look

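The effect of the KO label differed between systems, by a test of the difference itself (edgeR over all 8 libraries, in vivo minus in vitro on the log2 scale), for 13 of the 46 genes tested among the 10 factors and the 44 other genes of lineage choice, where 16.4% of all 9364 genes tested differed. Among the factors the difference was -4.82 for Zbtb7b, -2.16 for Runx3, -1.05 for Gata3, -0.87 for Bcl11b, -0.62 for Runx1 and -0.61 for Tox. Zbtb7b and Runx3 entered the test only because their in vitro KO libraries passed the expression filter, so their place in the 13 supports nothing. Without a filter their differences were -4.79 (edgeR adjusted p = 0.000417) and -2.14 (edgeR adjusted p = 0.000587). Each of these 6 had the lower log2 fold change in vivo. Among the other genes it was -2.59 for Itgae, -1.76 for Il7r, -1.15 for Ets1 and -0.52 for Tle3, which were likewise lower in vivo. It was 1.83 for Nkg7, 0.86 for Tox2 and 0.75 for Tle4, which were higher in vivo. Nkg7 had a log2 fold change of 0.31 in vivo and -1.50 in vitro, Tox2 of 0.71 in vivo and -0.12 in vitro, and Tle4 of 0.07 in vivo and -0.66 in vitro. None of the 13 passed the threshold within the in vivo libraries alone by edgeR. Groups of 2 are too small for a test of outlying samples.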

How the results depend on the processing

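With 2 libraries per group, the count of genes past the threshold in vivo depended on the tool and on single libraries. It was 113, against 505 with DESeq2, 1078 with the replicate block, 379 with all 8 libraries in 1 fit, and 6 to 248 with a library left out (6 without WT replicate 2, 39 without KO replicate 1, 248 without KO replicate 2). Of the 10 factors none passed in vivo, against 1 with DESeq2, 3 with the block and 1 with all 8 libraries in 1 fit, and 0 with any library left out. Of the other lineage genes none passed, against 6, 7 and 3 under those settings and 0 to 1 with a library left out. For the difference between systems 7 of them passed, against 13 with DESeq2. The cause of these changes was not tested.

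A group cut to 1 library takes its spread from the other groups. With a library left out, the counts over all genes were 2400 to 3180 in vitro, 535 to 1781 for the difference, 4487 to 6024 between KO libraries and 5249 to 6278 between WT libraries. For the factors they were 7 to 9 in vitro, 2 to 6 for the difference and 5 to 8 between systems under each label. For the other lineage genes they were 13 to 17 in vitro, 5 to 10 for the difference, 23 to 28 between KO libraries and 26 to 31 between WT libraries. Without either in vitro KO library, Zbtb7b and Runx3 were not tested because fewer genes met the filter.

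Values near 0 turned sign with a library left out. In vivo Patz1 ran from -0.077 (without WT replicate 1) to 0.15 (without WT replicate 2), Runx1 from -0.17 (without KO replicate 1) to 0.14 (without KO replicate 2), Myb from -0.29 (without WT replicate 1) to 0.16 (without WT replicate 2) and Satb1 from -0.080 (without KO replicate 2) to 0.53 (without KO replicate 1). Runx1 was also at 0.0091 with all 8 libraries in 1 fit. The difference for Cbfb ran from -0.17 (without in vitro KO replicate 2) to 0.028 (without in vitro KO replicate 1). Between KO libraries Satb1 ran from -0.53 (without in vivo KO replicate 2) to 0.093 (without in vivo KO replicate 1) and Bcl11b from -0.056 to 0.17 without the same libraries. Of all values of single genes under the alternatives, 639 kept their direction and side of the threshold, 25 lost a call, 9 gained one and 11 turned sign. RLE and library-total scaling turned no factor and moved the median of all genes by less than 0.1. Rescaling to TPM keeps the order of genes within a library by construction, so it cannot test that order. The order of group means is not fixed by it and is given here by FPKM only.

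The labels do not state that same-numbered libraries are pairs. Deviations of same-numbered libraries correlated by 0.459 in vivo and -0.305 in vitro, so they tended to go together in vivo and not in vitro. The cause was not tested. With the block, Gata3 (edgeR adjusted p = 0.00359), Bcl11b (0.0351) and Zbtb7b (0.0481) passed in vivo. Pairing the in vitro libraries crosswise, which was chosen after seeing the data, gave 4997 calls against 3649, with 9 of the 10 factors called.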
